A study of Homo sapiens with 114 samples.

Results

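The genes described here are 35 named collagens, laminins, other matrix proteins and members of the TGF-beta system, followed in HK-2 cells through 9 compounds. They were listed by name, and the list was drawn up with earlier results of these data known. Those whose level passed log2 4 on 3 or more arrays of the series were kept. Of the 35, 34 had a probe set carrying that symbol alone, and 30 were kept out of 11951 genes that passed the same filter. No probe set with the single symbol LAMA3 was named in the annotation used here. The collagen gene COL5A1 exceeded log2 4 on 2 arrays, and COL5A2, COL4A6 and the gelatinase gene MMP2 on 0 arrays, so these 4 were left out.

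A basement membrane is a thin sheet under epithelial cells, built from a laminin network and a type IV collagen network that are joined by nidogen and perlecan. Type IV collagen is a trimer of alpha chains, and the main kidney forms pair COL4A1 with COL4A2, and COL4A3 with COL4A4 and COL4A5. Interstitial matrix is built instead from fibronectin and from fibrillar, type VI and type XII collagens. TGF-beta is secreted in a latent complex, signals through receptors and SMAD proteins, induces many matrix genes, and is restrained by the inhibitor SMAD7. In the proximal tubule, both tubular basement membrane and TGF-beta signalling are known for their part in scarring after injury.

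HK-2 is an immortalized line of human renal proximal tubular epithelial cells. The cultures were exposed near confluence to 1 of 9 compounds, which the labels give as Aa, Nnm, Kbr, Ota, CsA, Fk, Ra, CdCl and Di, and controls received vehicle alone. Exposures to Aa, Nnm and Kbr lasted 24 or 48 h and those to Ota 24 or 72 h, each with high-dose and low-dose cultures. The remaining 5 had a single dose and lasted 12 or 48 h. The concentrations behind high and low are not given in the sources used here. Nnm and Kbr shared their controls, as did Fk and Ra, and CdCl and Di, so comparisons within such a pair, and those of the 2 doses of a compound, rest on the same control arrays. The 38 groups, 26 treated and 12 control, had 3 arrays each. The labels call them biological replicates of a single line, so p-values here measure only the spread between such cultures. RNA was measured per sample and the arrays were normalized together, so a level is relative to the rest of its array. It gives neither the number of cells nor the amount of RNA per cell.

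Epithelial identity was clear in that EPCAM, KRT8, KRT18, KRT19 and KRT7 exceeded log2 4 on every array and CDH1 on 111. The renal transcription factor gene PAX8 did so on every array. The mature proximal tubule genes LRP2, CUBN, AQP1, ANPEP, SLC34A1 and SLC22A6 did so on 0, and GGT1 on 5, so the labelled tubule type was not borne out by these transporter and brush border genes. Of 8 fibroblast markers, DCN and LUM were above log2 4 on every array, COL1A2 on 2 and COL3A1 on 1, while PDGFRA, PDGFRB, THY1 and POSTN were above it on 0. Endothelial and leukocyte markers were above it on 0 arrays except PECAM1 on 2. The upper quartile of an array ranged from 6.09 to 7.18. It was lowest in replicate 2 of Ra at 48 h, and low in all 3 arrays of Ota high at 24 h, at 6.32 to 6.59 against 6.97 to 7.08 in their controls.

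All values below are deposited log2 levels of 1 probe set per gene, and a difference is treated minus control at the same time on that scale, given with its standard error (SE). A gene was called higher or lower when its limma p, adjusted by the Benjamini-Hochberg method over all genes tested in that comparison, was under 0.05. Where all arrays of a group lie under log2 4, the filter level, the difference is that of the deposited values at the low end of the scale and no fold is given. Many compounds moved much of the transcriptome, so each count of members is given beside the share of all tested genes called. The heat map of differences shows the 30 kept genes across the 26 treated groups.

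**Figure D1:**
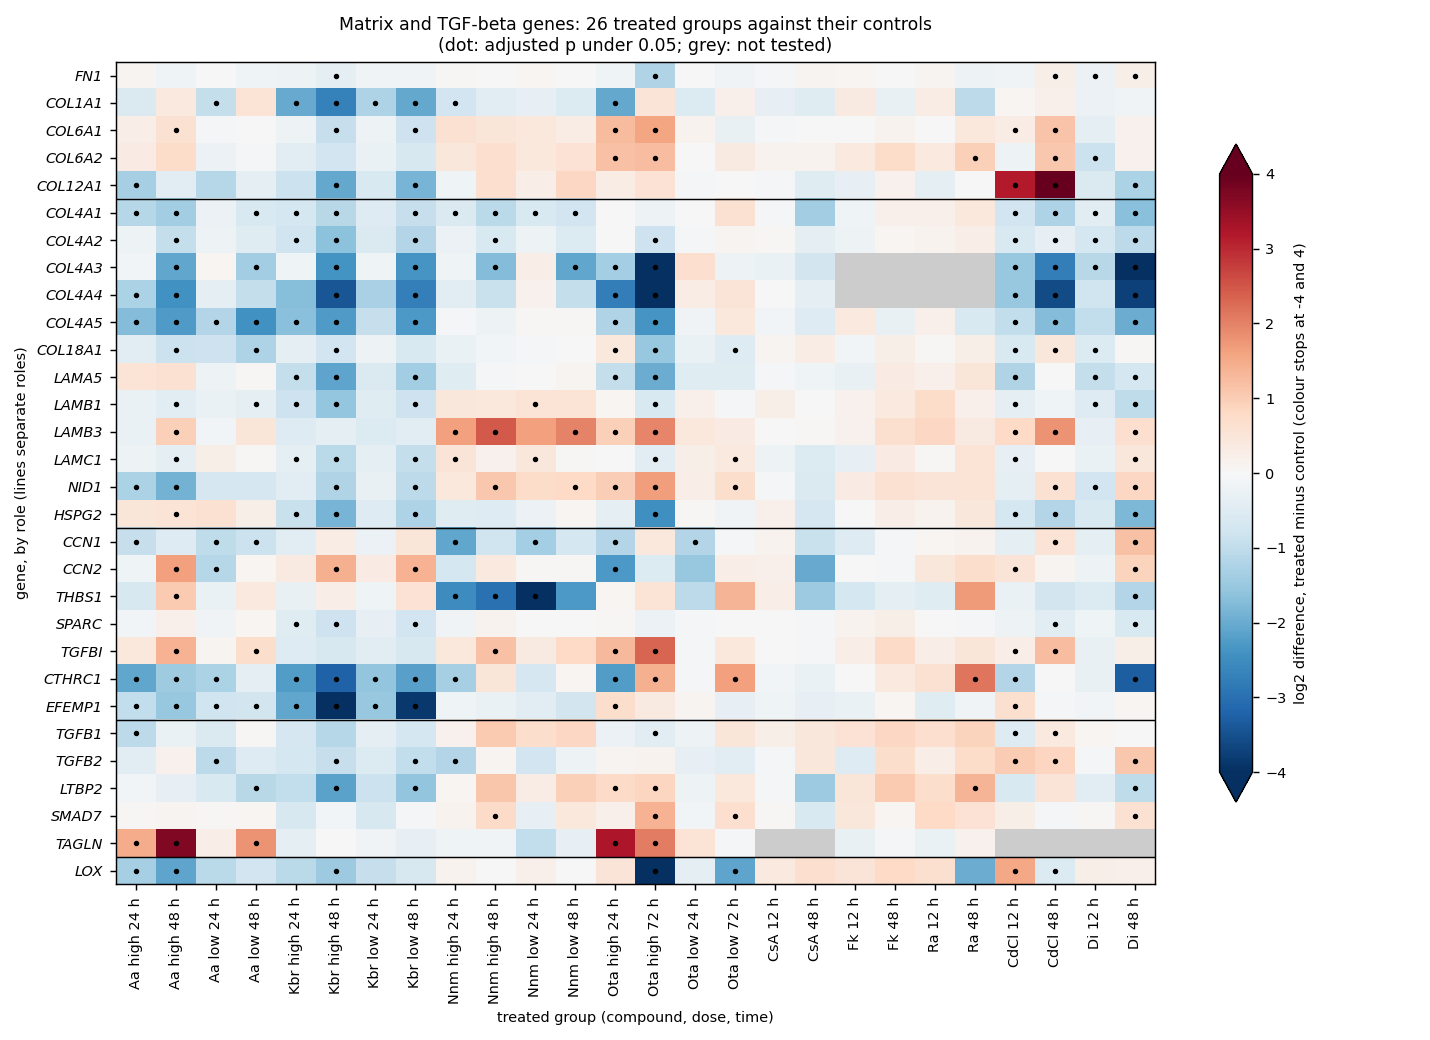
Log2 difference from the control of the same time for the 30 kept matrix genes (rows, grouped by role) in the 26 treated groups (columns). Blue is lower and red higher than control, grey was not tested, and a dot marks adjusted p under 0.05 (limma). Every dot in the 5 type IV collagen rows is on a blue cell.

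The promoters of 6 members are introduced first, since the type IV collagen genes lie in head-to-head pairs whose members are described together below, and since CCN2 and THBS1 are textbook targets of TEAD and SMAD factors. The RefSeq start sites used here, on GRCh38.p14, place COL4A1 and COL4A2 127 bases apart on chromosome 13 and COL4A4 and COL4A3 419 bases apart on chromosome 2, each pair on opposite strands. For COL4A4 the start used is 227164205, while its RefSeq gene range reaches 227164488. The COL4A4 bases printed therefore lie inside that range, and motif positions count from the start used. The COL4A4 and COL4A3 windows share 82 bases. The 250 bases before the start are printed 5′ to 3′ on the gene's own strand, for COL4A1 (chr13:110307158-110307407, minus strand), COL4A4 (chr2:227164206-227164455, minus strand), COL4A3 (chr2:227164374-227164623, plus strand), CCN2 (chr6:131951373-131951622, minus strand) and THBS1 (chr15:39580829-39581078, plus strand). The COL4A2 window (chr13:110307034-110307283, plus strand) overlaps that of COL4A1 and is not printed. Capitals mark matches, on either strand, to the GC box CCGCCC, the SMAD-binding element CAGAC, the TEAD motif CATTCC and the TATA box TATAAA.
COL4A1: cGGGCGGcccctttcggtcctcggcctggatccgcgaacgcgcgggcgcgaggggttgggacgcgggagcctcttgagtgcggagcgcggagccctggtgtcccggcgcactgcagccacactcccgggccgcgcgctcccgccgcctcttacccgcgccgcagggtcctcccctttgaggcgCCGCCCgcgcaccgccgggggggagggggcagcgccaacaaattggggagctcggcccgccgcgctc
COL4A4: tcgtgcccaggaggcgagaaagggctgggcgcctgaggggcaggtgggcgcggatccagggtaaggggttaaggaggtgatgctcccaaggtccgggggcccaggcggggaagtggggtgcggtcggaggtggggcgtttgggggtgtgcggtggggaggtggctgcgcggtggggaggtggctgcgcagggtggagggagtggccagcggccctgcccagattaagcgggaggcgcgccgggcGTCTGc
COL4A3: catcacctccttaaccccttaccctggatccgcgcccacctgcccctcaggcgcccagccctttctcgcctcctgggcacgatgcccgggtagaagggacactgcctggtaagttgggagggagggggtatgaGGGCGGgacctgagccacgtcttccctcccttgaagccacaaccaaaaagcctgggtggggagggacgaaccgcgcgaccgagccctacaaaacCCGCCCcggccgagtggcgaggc
CCN2: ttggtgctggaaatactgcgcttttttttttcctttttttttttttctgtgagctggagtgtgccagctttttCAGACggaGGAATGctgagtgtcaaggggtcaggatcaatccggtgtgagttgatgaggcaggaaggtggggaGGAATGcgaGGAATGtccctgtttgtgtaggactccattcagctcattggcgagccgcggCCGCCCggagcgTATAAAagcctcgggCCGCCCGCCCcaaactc
THBS1: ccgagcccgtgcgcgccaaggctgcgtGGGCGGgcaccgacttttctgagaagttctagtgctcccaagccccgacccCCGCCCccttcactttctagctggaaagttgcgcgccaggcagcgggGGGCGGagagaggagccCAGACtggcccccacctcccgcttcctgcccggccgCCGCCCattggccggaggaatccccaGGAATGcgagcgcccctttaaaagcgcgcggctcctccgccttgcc

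The COL4A1 stretch held 2 GC boxes, COL4A3 held 2, and COL4A4 held 1 CAGAC match on the opposite strand at -6 from the start. CCN2 held 3 TEAD matches, at -169, -104 and -95, with a CAGAC match at -177, a TATA box at -32 and 3 GC boxes, of which the last 2 overlap. THBS1 held 1 TEAD match at -46, 1 CAGAC match at -108 and 4 GC boxes. Windows of 300 bases, reaching 50 bases past the start, were matched for 27 of the 35 members, giving 36 windows. Over 35116 RefSeq promoters of that length, 45.3% held CAGAC, 11.5% TATAAA and 45.0% CCGCCC, against 19, 5 and 26 of the 36 member windows. CATTCC was held by 4928 of the 35116 promoters and by 5 member windows. The CArG box bound by SRF was in 1.29% of promoters and 0 member windows. A match describes letters only, and no binding was measured here.

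Kbr lowered most of these genes, and by 48 h it lowered nearly all of the basement membrane set. At the high dose and 48 h, 1 member was higher and 21 were lower of 30 tested, beside 51.1% of all genes called (22.2% higher, 28.9% lower). The median member differed by -1.13, against -0.07 for all genes. The lower calls held 11 of the 12 basement membrane genes tested, and the remaining one, LAMB3, differed by -0.40 ± 0.61 SE. EFEMP1, CTHRC1 and COL4A4 had the deepest falls and CCN2 was the only member called higher. Upper quartiles of these treated arrays, 6.83 to 6.96, lay below those of their controls, 7.03 to 7.07, and the part of this in the result was not tested. The count was 22 after quantile normalization too, which gives all arrays the same distribution.

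The low dose of Kbr at 48 h gave 1 higher and 18 lower, beside 29.4% of all genes called (15.2% higher, 14.3% lower), with a member median of -0.88 against -0.01. The high dose at 24 h gave 0 higher and 11 lower, beside 21.6% of genes (8.17% higher, 13.4% lower), with a median of -0.65 and upper quartiles of 6.92 to 6.99 against 7.03 to 7.10 in controls, whose part was not tested. The low dose at 24 h gave 3 lower beside 1.36% (0.671% higher, 0.689% lower). Arrays with the same number varied together in the Nnm and Kbr experiment. With that number as a block the high dose at 24 h gave 21 lower (34.4% of genes) and the low dose at 24 h gave 9 lower (7.77%). At 24 h the high-dose count was 5 without control replicate 1 and 6 without Kbr high replicate 2. The 3 calls at the low dose, COL1A1, CTHRC1 and EFEMP1, were 0 without any 1 of control replicates 1 and 2 or low-dose replicates 2 and 3, and 1 without low-dose replicate 1.

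Aa split the set. At the high dose and 48 h type IV collagens, NID1, CTHRC1, EFEMP1 and LOX were lower, while the contractile gene TAGLN and the TGF-beta-inducible genes CCN2, TGFBI and THBS1 were higher. In all 7 members were higher and 12 lower of 30, beside 64.3% of all genes called (29.8% higher, 34.5% lower), so the share called, 63.3%, was near the background. The member median was -0.29 against -0.04. At the high dose and 24 h 1 member, TAGLN, was higher and 10 were lower, beside 49.9% of genes called (26% higher, 23.9% lower). The low dose gave 0 higher and 7 lower at 24 h beside 23.2% of genes (10.2% higher, 13.0% lower), and 2 higher and 8 lower at 48 h beside 37.0% (17.7% higher, 19.3% lower). With the replicate number as a block, high 24 h gave 5 higher and 15 lower (62.1% of genes), low 24 h gave 2 and 14 (37.5%) and low 48 h gave 4 and 13 (51.7%). The count at the low dose and 24 h was 3 without control replicate 1, and at 48 h it was 6 without control replicate 1 and 6 without low-dose replicate 1.

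Nnm moved members in both directions, and the share called was near or under that of all genes, from 13.3% to 26.7% over its 4 groups. At the high dose and 48 h LAMB3, NID1, TGFBI and SMAD7 were higher and COL4A1, COL4A2, COL4A3 and THBS1 lower, which is 4 and 4 of 30 beside 27.7% of genes called (15.4% higher, 12.3% lower). The treated arrays overlapped the controls in SMAD7 and COL4A3. The high dose at 24 h gave 2 higher and 6 lower beside 35.9% (17.6% higher, 18.4% lower). The low dose gave 2 higher and 3 lower at 24 h beside 18.5% (9.39% higher, 9.13% lower), and 2 and 2 at 48 h beside 14.1% (8.39% higher, 5.73% lower). With the replicate block, high 48 h gave 9 higher and 4 lower (41.2% of genes), low 24 h gave 6 and 4 (31.9%), and low 48 h gave 8 and 4 (26.7%).

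The Nnm arrays numbered 2 lay nearer the controls than the other 2 in several members, as the values of THBS1 and LAMB3 given with their gene groups show. Without them the counts were 10 at high 24 h, 11 at high 48 h, 8 at low 24 h and 9 at low 48 h. At high 24 h the count was 4 without control replicate 1, control replicate 3, Nnm replicate 1 or Nnm replicate 3, and at high 48 h it was 5 without control replicate 1, control replicate 3 or Nnm replicate 3 and 3 without Nnm replicate 1. At low 24 h it was 3 without control replicate 1 or Nnm replicate 3, and 1 without Nnm replicate 1 or control replicate 3. At low 48 h it was 2 without control replicate 2, and 1 without control replicate 1, control replicate 3, Nnm replicate 1 or Nnm replicate 3. At high 48 h it was 0 when only the arrays of the comparison were fitted.

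Ota at the high dose lowered the COL4A3, COL4A4 and COL4A5 chains and raised type VI collagens, LAMB3, NID1, TGFBI and TAGLN. At 72 h 9 members were higher and 12 lower of 30, beside 63.2% of genes called (25.3% higher, 37.9% lower), with LOX and COL4A3 falling most. At 24 h 9 were higher and 8 lower beside 65.0% of genes (21.4% higher, 43.6% lower), and the member median was 0.06 against -0.29 for all genes. Quantile normalization moved that all-gene median to -0.07 and the share of all calls that were higher from 32.9% to 43.9%, so differences at 24 h are best read against the all-gene median. At 72 h ACTB showed a larger 3′ minus 5′ probe difference, 1.66 to 2.30 in treated and 1.16 to 1.51 in control arrays, and upper quartiles were 6.75 to 6.88 against 7.02 to 7.06. The part of these in the result was not tested.

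With the low dose of Ota at 72 h CTHRC1, NID1, SMAD7 and LAMC1 were higher and LOX and COL18A1 lower, beside 16.0% of genes called (9.01% higher, 7.02% lower). Upper quartiles were 7.10 to 7.18 against 7.02 to 7.06 in controls, and their part was not tested. The calls of COL18A1 and LAMC1 were lost with the mean of all probe sets, and the other COL18A1 probe set differed by 0.23. This count of 6 was 3 without control replicate 3, and 10 when only the arrays of the comparison were fitted. At 24 h CCN1 was the only member called, in the lower direction, beside 13.7% of genes (3.72% higher, 9.99% lower), and it was not called without control replicate 1, control replicate 3 or low-dose replicate 2. Without control replicate 2 the count was 2.

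CdCl lowered the type IV collagens and raised the interstitial collagen genes COL12A1 and COL6A1, TGFBI, LAMB3 and TGFB2 at both times. At 12 h, however, the call of COL6A1 held in only 3 of 12 alternatives and that of TGFBI in 7, and quantile normalization ended both. The lower call of COL4A5 at 12 h held in 5 of 12. At 12 h 8 members were higher and 12 lower of 29, beside 48.7% of genes called (14.5% higher, 34.3% lower), and 10 of the 12 lower calls were basement membrane genes. At 48 h 11 were higher and 8 lower beside 46.4% (22.9% higher, 23.5% lower), and 4 of the 5 interstitial genes tested were higher. All 19 calls at 48 h held in every alternative run. Upper quartiles of the CdCl arrays at 12 h were 6.86 to 6.94 against 6.98 to 7.06 in controls, a difference whose part in the result was not tested.

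Di lowered COL4A1, COL4A2 and COL4A3 at both times and COL4A4 and COL4A5 at 48 h, when it also raised CCN1, CCN2, TGFB2 and NID1. At 12 h the call of COL4A3 held in only 3 of 11 alternatives. At 12 h 0 members were higher and 9 lower of 29, beside 11.8% of genes called (3.61% higher, 8.23% lower). At 48 h 8 were higher and 13 lower beside 47.4% (21.4% higher, 25.9% lower), and 8 of the 13 were basement membrane genes. Upper quartiles at 48 h were 6.76 to 6.92, against 6.92 to 7.03 in controls without overlap. The ACTB 3′ minus 5′ difference was smaller in Di at 12 h, 1.23 to 1.55, than in its controls, 1.82 to 2.09, and the part of these in the results was not tested. With only the arrays of the comparison the 12 h count was 4.

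CsA, Fk and Ra gave few calls or none. Ra at 48 h had 3 members higher and 0 lower of 28, beside 9.33% of genes called (1.87% higher, 7.46% lower), namely LTBP2, CTHRC1 and COL6A2, while its member median was 0.42 and that of all genes -0.19. Those 3 depended on the arrays used. The count was 0 without control replicate 1 or control replicate 2, 6 without control replicate 3, 5 without Ra replicate 1, 5 without Ra replicate 2, which is the array with the lowest upper quartile, and 1 without Ra replicate 3. Quantile normalization moved the all-gene median to 0.01 and gave 7 higher and 2 lower, and a fit of only these arrays gave 0.

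At 12 h Ra had 0 members called beside 0.0367% of genes, with 5 at unadjusted p under 0.05. Fk had 0 of 28 called at 12 h beside 0.00918% and 0 at 48 h beside 0.0% of genes, with 0 and 6 members at unadjusted p under 0.05. CsA had 0 of 29 at 12 h beside 0.0% and 0 at 48 h beside 0.00925%, with 0 and 1 at unadjusted p under 0.05. With the replicate block CsA at 48 h had 1 member lower beside 1.91% of genes. A count of 0 sets no bound on an effect, and the intervals were wide. In CsA at 48 h the 95% interval of the difference ran from -2.86 to 0.06 for COL4A1 and from -4.71 to 0.69 for CCN2. Both intervals come from the fit without the replicate block. Same-numbered CsA arrays varied together (lowest pair correlation 0.534), so that shared spread is part of their width.

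**Figure D2:**
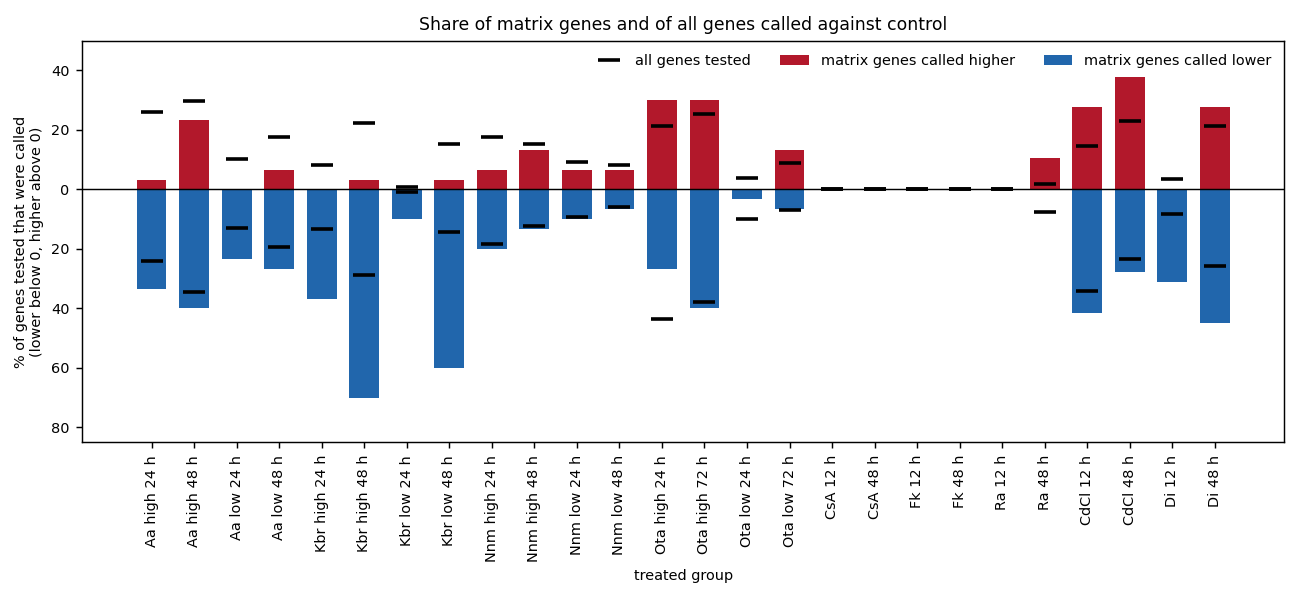
Percent of the matrix genes tested that were called (y axis; red bars above 0 higher, blue bars below 0 lower) in each of the 26 treated groups, with black ticks for the percent of all genes tested, by limma at adjusted p under 0.05. In Kbr high at 48 h 21 of 30 matrix genes were lower against 28.9% of all genes, while in Aa high at 48 h 63.3% of matrix genes and 64.3% of all genes were called.

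COL4A1 and COL4A2, the chains of the most widespread type IV collagen, were called lower in 14 and 10 of the 26 treated groups and higher in 0. Both were lower in 9, COL4A1 alone in 5 and COL4A2 alone in 1. In Di at 48 h COL4A1 read 10.09, 10.24 and 10.20 on the treated arrays and 11.69, 12.01 and 11.80 on the controls. All 3 treated arrays lay more than a log2 unit below the lowest control, and the fall was 1.66 ± 0.09 SE on the log2 scale, a 3.16-fold drop (limma adjusted p = 1.42e-09). COL4A2 in the same cultures read 10.49, 10.48 and 10.48 against 11.43, 11.66 and 11.51, a fall of 1.05 ± 0.08 SE on the log2 scale (adjusted p = 4.06e-08).

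The largest fall of COL4A2 was in Kbr high at 48 h, where it read 11.19, 10.51 and 11.15 against 12.88, 12.30 and 12.57. The groups did not overlap, and the difference was -1.64 ± 0.22 SE (adjusted p = 3.01e-06). COL4A1 fell there by 1.10 ± 0.21 on the log2 scale. Aa high gave -1.15 ± 0.17 at 24 h and -1.38 ± 0.17 at 48 h for COL4A1, and CdCl -0.77 ± 0.09 and -1.24 ± 0.09 at 12 and 48 h. In Ota high at 72 h the pair differed in call. COL4A2 was lower by -0.83 ± 0.13, with 10.92, 10.94 and 10.93 against 11.86, 11.77 and 11.66, while COL4A1 differed by -0.21 with a 95% interval from -0.65 to 0.22 and was not called. The 14 calls of COL4A1 held in every alternative run in 7 comparisons, and the 10 of COL4A2 in 8.

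COL4A3 and COL4A4, chains of the collagen of specialised basement membranes that is altered in Alport syndrome, had large falls in their deposited log2 values. COL4A3 was called lower in 12 and COL4A4 in 9 of the 22 treated groups in which they were tested, and higher in 0. Both were lower in 8, COL4A3 alone in 4 and COL4A4 alone in 1. In Di at 48 h COL4A3 read 2.61, 3.20 and 3.62 on the treated arrays and 8.50, 8.50 and 8.15 on the controls. All 3 treated values were below log2 4 and all controls above 8, a difference of -5.24 ± 0.34 SE (adjusted p = 7.57e-09). COL4A4 read 4.52, 4.91 and 4.31 there against 8.17, 8.36 and 8.44, a 13.4-fold drop.

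In Ota high at 72 h COL4A3 read 2.54, 2.57 and 2.71 against 7.28, 7.62 and 7.83, and differed by -4.97 ± 0.32 SE (adjusted p = 4.68e-09). COL4A4 read 2.94, 2.63 and 3.60 against 6.84, 7.16 and 7.60, a difference of -4.14 ± 0.32. At 24 h the same dose gave -1.35 ± 0.32 for COL4A3 and -2.77 ± 0.32 for COL4A4. In CdCl at 48 h COL4A3 fell by 2.77 ± 0.34 and COL4A4 by 3.57 ± 0.32 on the log2 scale, with replicate 2 lowest for each, at 4.71 and 3.83.

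The level of COL4A3 in untreated cultures depended on the experiment, with control group means from 2.53 to 8.39. In the Fk and Ra experiment both genes stayed under log2 4 in controls and were not tested. In the Aa, Nnm and Kbr experiments the 24 h controls of COL4A3 read between 2.51 and 3.07, and none of the 6 groups treated for 24 h was called for it. At 48 h Kbr high took COL4A3 from 4.23, 5.58 and 4.92 to 2.52, 2.53 and 2.53, and COL4A4 from 4.48, 5.73 and 5.31 to 1.72, 1.75 and 1.76. All treated values lay under log2 4 at the low end of the scale, and the difference of the deposited values for COL4A4 was -3.43 ± 0.70 SE (adjusted p = 0.000299). Nnm high at 48 h left replicate 2 of COL4A3 at 4.52 while the other 2 read 2.52, so the groups overlapped although the gene was called, at -1.73 ± 0.41 SE. In Aa low at 48 h COL4A3 replicate 2, at 4.48, overlapped the controls likewise.

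COL4A5, the third chain of that trimer, was lower in 12 of 26 treated groups and higher in 0. In Aa low at 48 h it read 3.46, 4.47 and 3.65 against 6.64, 6.80 and 5.43, a difference of -2.43 ± 0.37 SE (adjusted p = 0.000172). The groups were separated by about a log2 unit. Falls of similar size were measured in Ota high at 72 h (-2.35 ± 0.24), Kbr low at 48 h (-2.29 ± 0.34), Kbr high at 48 h (-2.28 ± 0.34) and Aa high at 48 h (-2.27 ± 0.37). Calls held in every alternative run in 9 of 12 for COL4A3, 8 of 9 for COL4A4 and 10 of 12 for COL4A5. The plot of type IV collagen levels by array shows the 5 chains together.

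**Figure D3:**
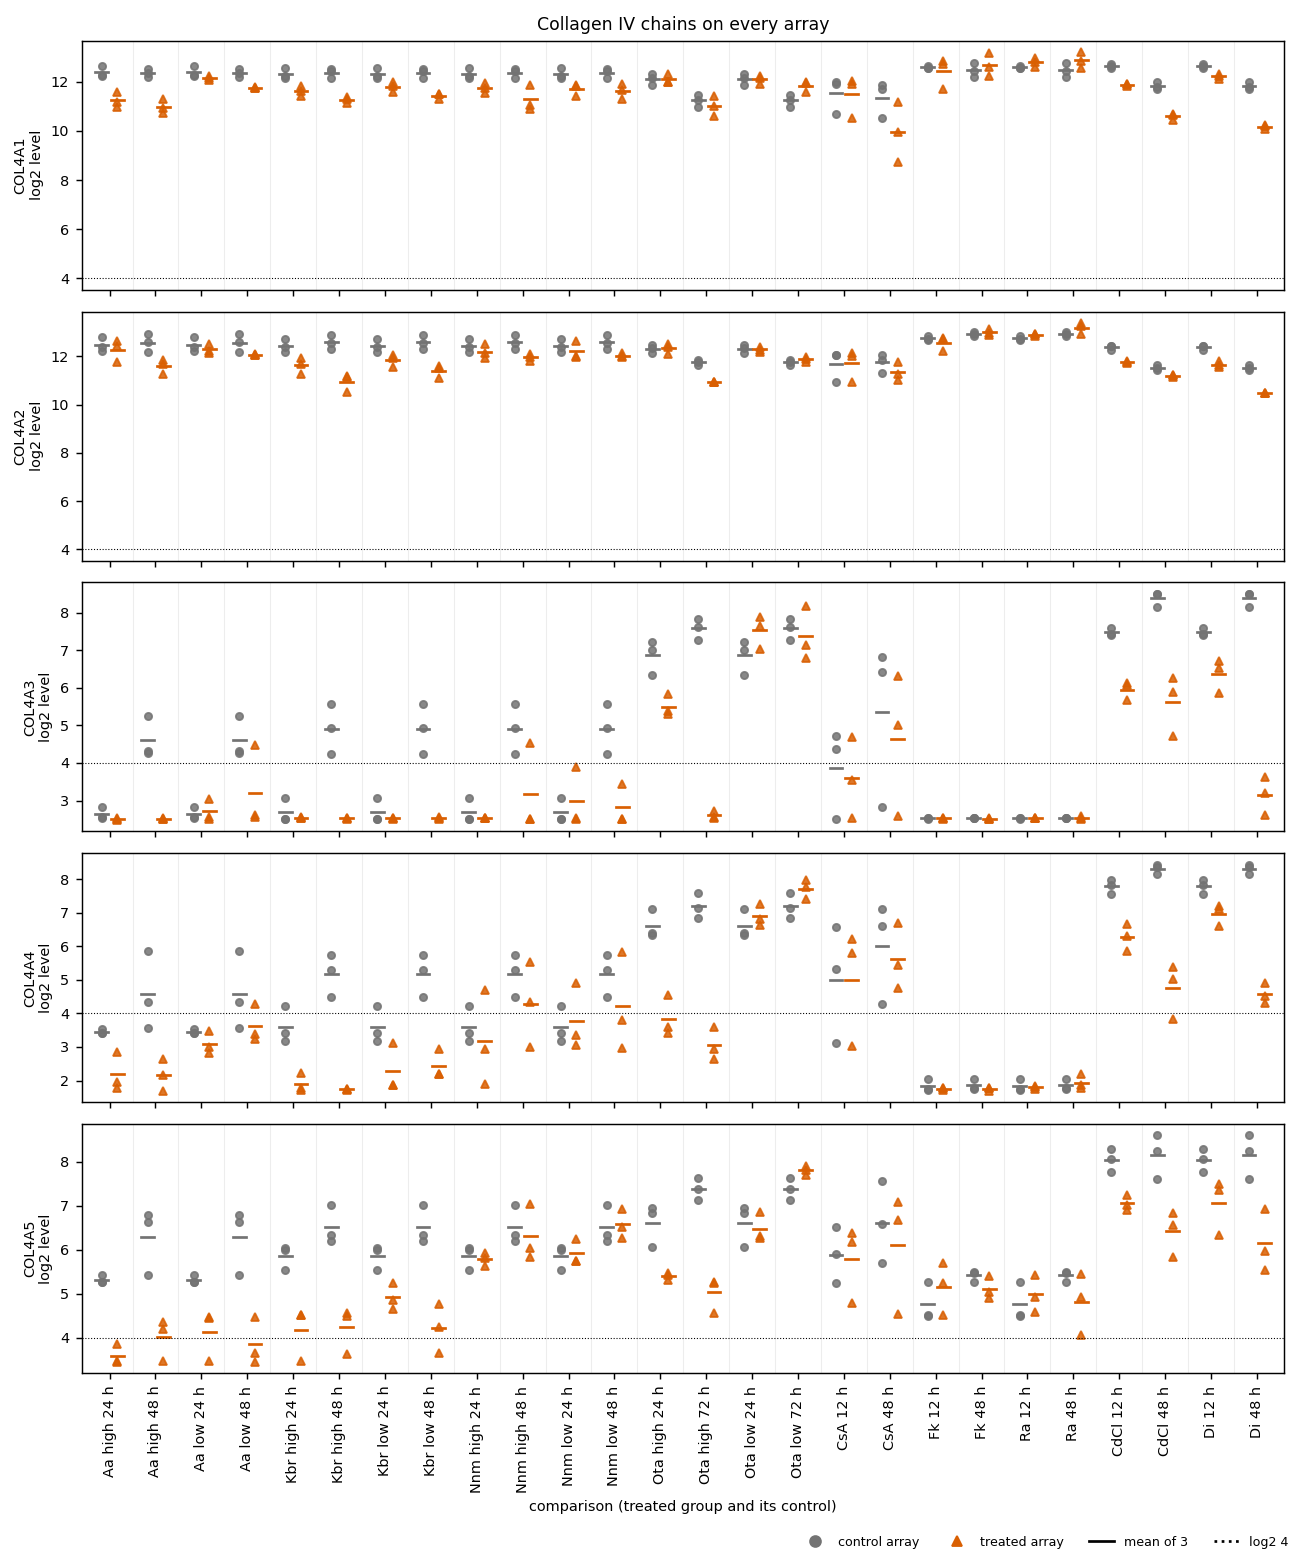
Log2 level (y axis) of the type IV collagen genes on every array in the 26 comparisons (x axis), with grey circles for control and orange triangles for treated arrays, bars at the mean of 3 and a dotted line at log2 4. COL4A3 in Di at 48 h lies between 2.61 and 3.62, below its controls at 8.15 to 8.50, while COL4A1 in the same cultures lies between 10.09 and 10.24 against 11.69 to 12.01.

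The laminin genes moved apart from each other. LAMA5, LAMB1 and LAMC1 encode the chains of laminin-511, the main laminin of mature tubular basement membrane, and were lower in 8, 9 and 6 treated groups and higher in 0, 1 and 4. Calls held in every alternative run in 7 of 8 for LAMA5, 5 of 10 for LAMB1 and 2 of 10 for LAMC1. The other LAMC1 probe set went against the call in Ota high (0.06) and Ota low (-0.05) at 72 h. LAMB3, the beta chain of laminin-332 that anchors epithelial cells, was higher in 9 and lower in 0. In Kbr high at 48 h LAMA5 read 7.62, 7.54 and 7.99 against 10.01, 9.69 and 9.79, a fall of 2.11 ± 0.28 SE on the log2 scale (adjusted p = 1.68e-06). LAMB1 fell by 1.53 ± 0.19 and LAMC1 by 1.07 ± 0.12 in the same cultures. LAMA5 also fell by 2.00 ± 0.18 in Ota high at 72 h and by 1.21 ± 0.18 in CdCl at 12 h.

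LAMB3 rose most in Nnm high at 48 h, where it read 10.45, 7.78 and 10.42 against 6.87, 7.02 and 7.36. Replicate 2 was less than a log2 unit above the controls and the other 2 arrays about 3 units above, for a difference of 2.46 ± 0.61 SE (adjusted p = 0.00494). The same array number was the low one at the low dose, at 7.28 beside 10.01 and 9.96, and there it overlapped the controls. In Ota high at 72 h LAMB3 read 8.95, 9.48 and 9.27 against 7.17, 7.28 and 7.38, a rise of 1.96 ± 0.27, and in CdCl at 48 h 8.61, 8.90 and 8.30 against 6.65, 6.65 and 7.13, a rise of 1.79 ± 0.16. No group overlapped in these last 2 comparisons.

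NID1, which encodes the nidogen that bridges laminin and type IV collagen, was higher in 7 and lower in 5 treated groups. It fell in Aa high at 48 h, from 9.61, 9.42 and 9.43 to 8.21, 7.37 and 7.19 (-1.90 ± 0.27 SE, adjusted p = 1.86e-05), and rose in Ota high at 72 h, from 7.97, 8.25 and 7.96 to 9.83, 9.90 and 9.49 (1.68 ± 0.17 SE, adjusted p = 4.56e-07). Neither comparison had overlapping arrays. HSPG2, which encodes perlecan, was lower in 7 and higher in 1, with falls of 2.46 ± 0.28 in Ota high at 72 h, 1.85 ± 0.26 in Kbr high at 48 h and 1.80 ± 0.25 in Di at 48 h. COL18A1, the source of endostatin, was lower in 7 and higher in 2. In Ota high it was higher at 24 h (0.42 ± 0.12) and lower at 72 h (-1.51 ± 0.12), and in CdCl lower at 12 h (-0.61 ± 0.11) and higher at 48 h (0.45 ± 0.11).

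Among interstitial matrix genes COL12A1 had the largest changes. This gene, for a collagen that decorates fibrils, read 9.20, 9.51 and 9.52 in CdCl at 48 h against 5.49, 5.16 and 5.23 in controls. The treated arrays were all more than 3 log2 units above the highest control, and the difference of 4.12 ± 0.29 SE is 17.4-fold (adjusted p = 3.23e-08). At 12 h CdCl gave 9.45, 9.51 and 9.77 against 6.77, 5.92 and 6.51, a rise of 3.18 ± 0.29 SE. Kbr lowered it at 48 h, from 4.73, 5.07 and 5.27 to 2.69, 2.71 and 3.53 at the high dose (-2.05 ± 0.46 SE) and to 2.86, 2.91 and 3.72 at the low dose (-1.86 ± 0.46). Aa high at 24 h and Di at 48 h also lowered it, by 1.32 ± 0.46 and 1.26 ± 0.29. The Aa call held in only 6 of 10 alternatives, and in Di 2 other COL12A1 probe sets, under log2 4 on average, differed by 0.01.

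Type VI collagen genes, whose product forms beaded filaments next to basement membranes, were called higher more often than lower. Of 26 treated groups, COL6A1 was higher in 5 and lower in 2, and COL6A2 higher in 4 and lower in 1. The higher call of COL6A1 in Aa high at 48 h was lost with the mean of all probe sets, and another of its probe sets differed by -0.22. In Ota high at 72 h COL6A1 read 10.21, 10.54 and 9.92 against 8.68, 8.58 and 8.66, with no overlap, a rise of 1.58 ± 0.19 SE (adjusted p = 3.22e-06). COL6A2 rose there by 1.23 ± 0.31, although its other probe set fell by 0.51. In CdCl at 48 h the rises were 1.16 ± 0.12 for COL6A1 and 1.08 ± 0.18 for COL6A2. Kbr lowered COL6A1 at 48 h, by 0.92 ± 0.26 at the high and 0.82 ± 0.26 at the low dose, calls that the mean of all probe sets ended.

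COL1A1, a chain of type I collagen, was lower in 7 treated groups and higher in 0. In Kbr high at 48 h its probe set read 5.48, 4.90 and 5.36 against 7.88, 7.87 and 8.13, a fall of 2.71 ± 0.29 SE on the log2 scale (adjusted p = 1.02e-07). At 24 h the same dose gave a fall of 2.01 ± 0.29 and Ota high one of 2.04 ± 0.35. Another COL1A1 probe set differed by 0.06, 0.03 and 0.08 in these 3 comparisons, so the falls were seen by only part of the gene's probes. FN1, for fibronectin, was lower in 3 and higher in 2 treated groups. It fell most in Ota high at 72 h, where it read 13.26, 13.87 and 13.40 against 14.77, 14.78 and 14.60, a fall of 1.20 ± 0.16 SE on the log2 scale (adjusted p = 7.89e-06). Its fall of 0.36 ± 0.09 in Kbr high at 48 h became 0.02 with the mean of all FN1 probe sets, 2 of which rose by 1.35 and 0.95, and that call was lost.

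**Figure D4:**
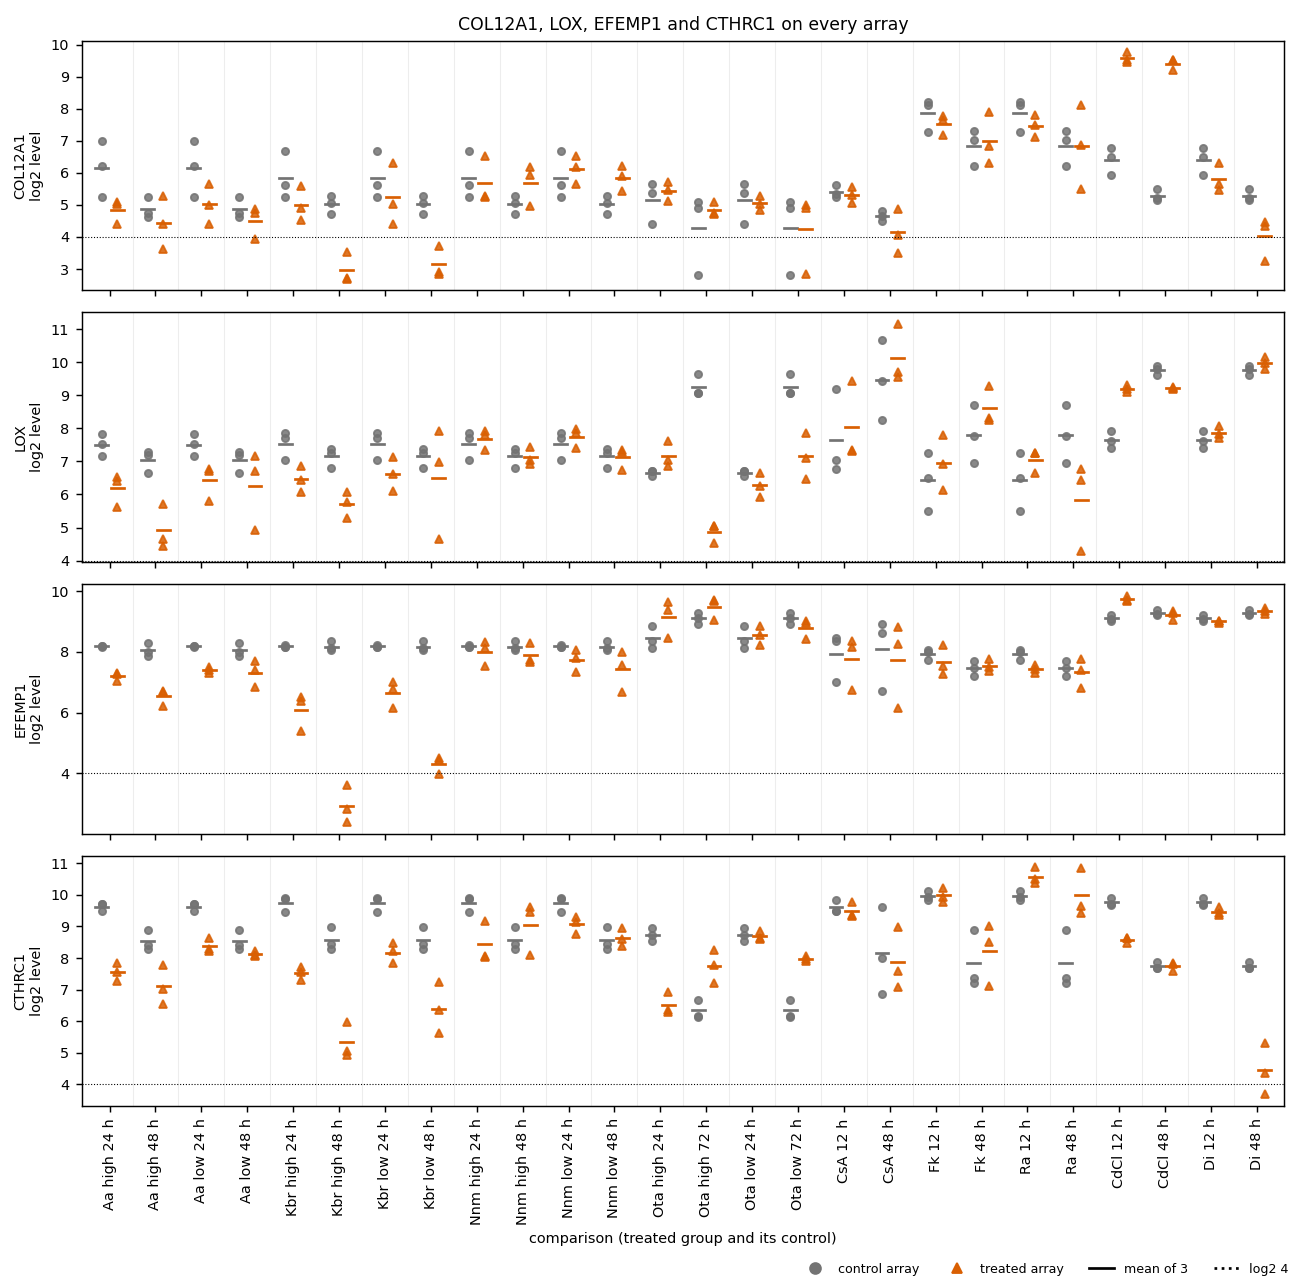
Log2 level (y axis) of COL12A1, LOX, EFEMP1 and CTHRC1 on every array, with grey circles for control and orange triangles for treated arrays, bars at the mean of 3 and a dotted line at log2 4. EFEMP1 lies between 2.39 and 3.61 in Kbr high at 48 h against 8.06 to 8.35 in its controls, and COL12A1 between 9.20 and 9.52 in CdCl at 48 h against 5.16 to 5.49.

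The secreted matricellular proteins sit in the matrix and act on cells without building it. EFEMP1, for fibulin-3, was lower in 8 and higher in 2 treated groups, and all 4 Kbr groups lowered it. In Kbr high at 48 h it read 2.83, 2.39 and 3.61 against 8.06, 8.35 and 8.11. Every treated array fell below log2 4, a difference of -5.23 ± 0.34 SE (adjusted p = 2.06e-10). The low dose at 48 h gave 3.97, 4.43 and 4.51 against the same controls, a difference of -3.87 ± 0.34, and at 24 h the high and low doses gave -2.08 ± 0.34 and -1.53 ± 0.34. Aa lowered it in all 4 of its groups, from -0.73 ± 0.19 at the low dose and 48 h to -1.51 ± 0.19 at the high dose and 48 h. CdCl at 12 h raised it by 0.63 ± 0.09.

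CTHRC1, a secreted protein of injured and remodelling tissue, was lower in 11 and higher in 3 treated groups, among the most often called of the members. In Di at 48 h it read 3.69, 4.36 and 5.32 against 7.67, 7.69 and 7.86, a difference of -3.28 ± 0.26 SE (adjusted p = 8.65e-08). In Kbr high at 48 h it read 4.93, 5.07 and 5.99 against 8.29, 8.43 and 8.99, a difference of -3.24 ± 0.39. No arrays overlapped in either. Ota turned it with time. At 24 h the high dose gave 6.35, 6.29 and 6.92 against 8.74, 8.54 and 8.94, and at 72 h 7.78, 8.26 and 7.21 against 6.18, 6.14 and 6.68, so the difference went from -2.22 ± 0.23 to 1.42 ± 0.23. The low dose at 72 h raised it by 1.64 ± 0.23.

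THBS1, for thrombospondin-1, an activator of latent TGF-beta, was lower in 4 and higher in 1 treated groups. Its largest change was in Nnm low at 24 h, where the arrays read 3.03, 7.04 and 4.02 against 8.96, 8.35 and 8.82. Replicate 2 was 3 log2 units above the others yet still under the controls, and the difference was -4.01 ± 0.80 SE (adjusted p = 0.00186). In Nnm high at 48 h it read 2.98, 5.97 and 3.73 against 7.27, 7.45 and 6.91, with replicate 2 again highest, a difference of -2.98 ± 0.80. Aa high at 48 h raised it by 1.05 ± 0.36 and Di at 48 h lowered it by 1.16 ± 0.32.

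CCN1 and CCN2 are immediate early matricellular genes and standard readouts of YAP with TEAD. CCN1 was lower in 7 and higher in 2 treated groups, and CCN2 lower in 2 and higher in 5. CCN2 fell in Ota high at 24 h, to 6.79, 6.37 and 6.83 from 9.44, 7.98 and 9.45 (-2.29 ± 0.55 SE, adjusted p = 0.0017), and rose in Aa high at 48 h, to 10.80, 10.81 and 11.40 from 9.44, 9.05 and 9.63 (1.63 ± 0.29 SE, adjusted p = 0.000144). Neither comparison overlapped. Kbr at 48 h raised CCN2 at both doses, by 1.44 ± 0.45 and 1.39 ± 0.45, and the call at the low dose was lost without the filter on low values, and without control replicate 1, control replicate 2 or low-dose replicate 3. CCN1 fell most in Nnm high at 24 h, from 11.95, 11.34 and 12.17 to 9.19, 10.55 and 9.47 (-2.08 ± 0.40 SE), and rose most in Di at 48 h, from 11.26, 11.55 and 11.07 to 12.45, 12.42 and 12.48 (1.16 ± 0.15 SE).

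TGFBI, an adhesive protein named for its induction by TGF-beta, was higher in 7 treated groups and lower in 0. In Ota high at 72 h it read 9.97, 10.07 and 9.99 against 7.60, 7.65 and 7.78, a rise of 2.33 ± 0.22 SE (adjusted p = 2.63e-07). Aa high at 48 h, CdCl at 48 h and Ota high at 24 h gave 1.40 ± 0.25, 1.23 ± 0.09 and 1.30 ± 0.22. SPARC, a collagen-binding protein of basement membranes, was lower in 5 and higher in 0, by at most 0.84 ± 0.14 in Kbr high at 48 h.

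**Figure D5:**
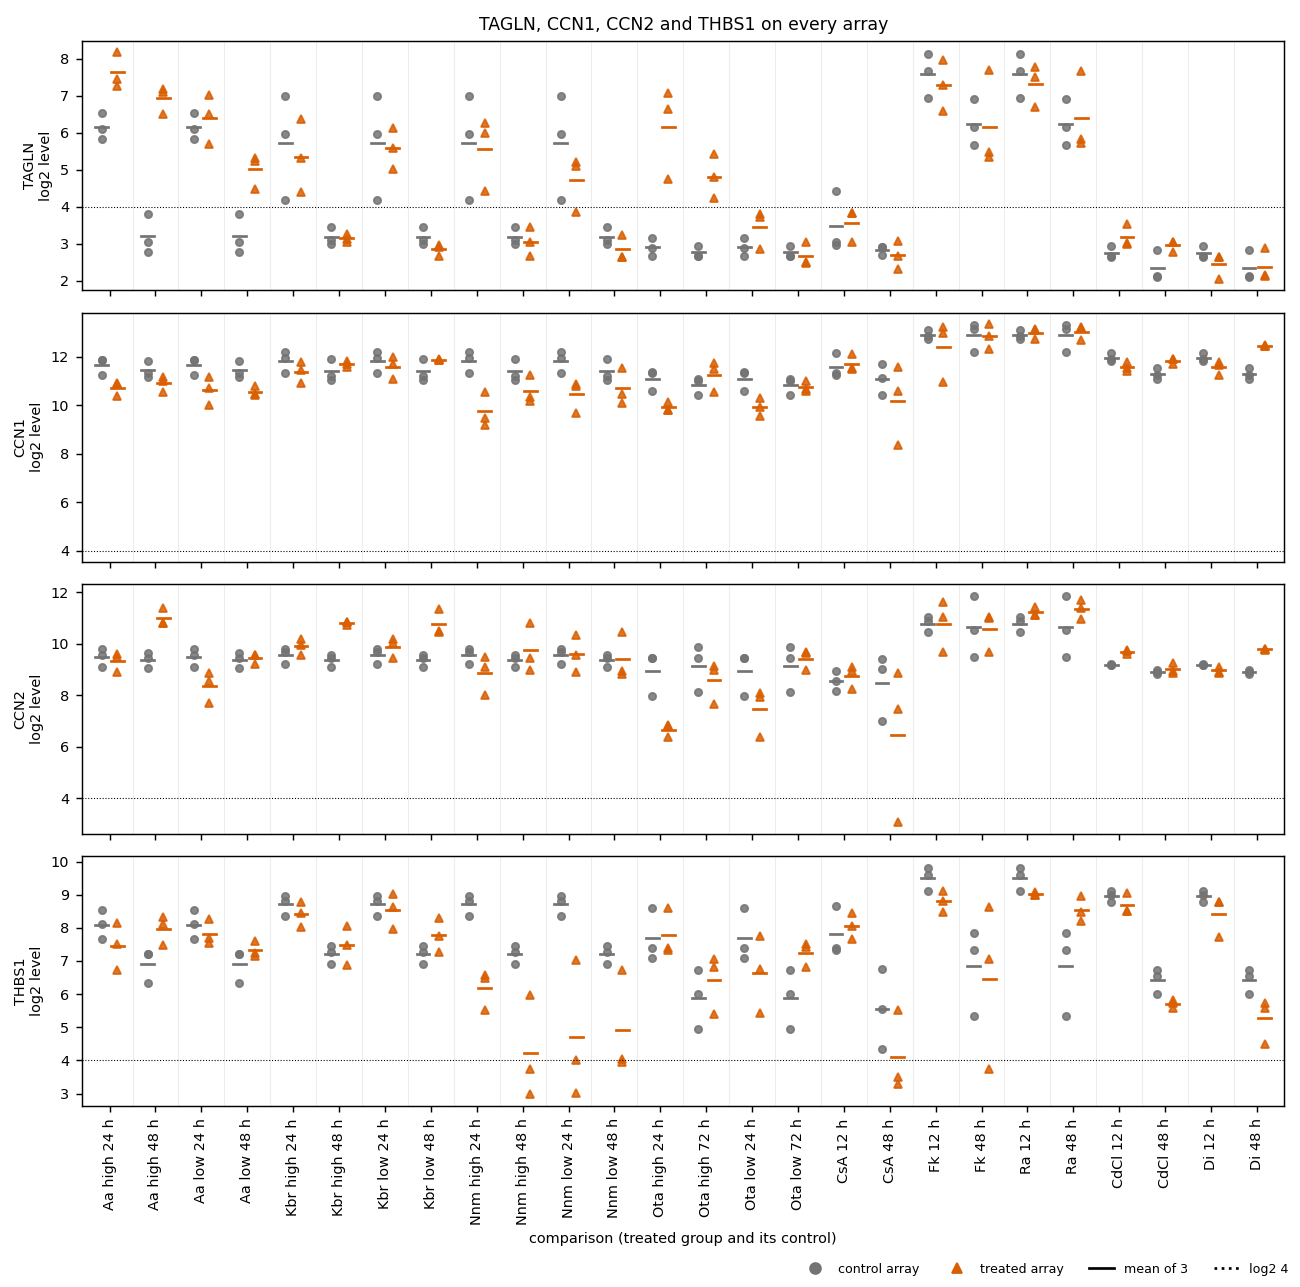
Log2 level (y axis) of TAGLN, CCN1, CCN2 and THBS1 on every array, with grey circles for control and orange triangles for treated arrays, bars at the mean of 3 and a dotted line at log2 4. TAGLN in Aa high at 48 h lies between 6.51 and 7.17 against 2.79 to 3.82 in its controls, and THBS1 replicate 2 stands above the other 2 arrays in Nnm low at 24 h.

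Of the TGF-beta ligands, TGFB1 was called in 4 and TGFB2 in 7 treated groups. TGFB2 was higher in CdCl at 12 h, where it read 9.05, 9.12 and 9.13 against 8.10, 7.92 and 8.25 (1.01 ± 0.11 SE, adjusted p = 5.12e-06), in CdCl at 48 h (0.87 ± 0.11) and in Di at 48 h (1.09 ± 0.11). It was lower in Nnm high at 24 h (-1.17 ± 0.29), Aa low at 24 h (-1.05 ± 0.21) and Kbr at 48 h (-0.93 ± 0.29 at the high dose, with the low dose also called). The Kbr calls were lost with the mean of all probe sets. TGFB1 moved by -1.04 ± 0.40 in Aa high at 24 h, which 6 of 12 alternatives ended, by -0.50 ± 0.10 in CdCl at 12 h, by 0.40 ± 0.10 in CdCl at 48 h, and by -0.46 ± 0.19 in Ota high at 72 h, a call that held in only 4 of 12 alternatives.

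LTBP2, a microfibril protein of the latent TGF-beta binding protein family, was higher in 3 and lower in 4 treated groups. It fell most in Kbr high at 48 h, from 8.74, 8.14 and 8.63 to 6.63, 5.44 and 7.05 (-2.13 ± 0.42 SE, adjusted p = 0.000218), and rose most in Ra at 48 h, from 7.97, 8.38 and 9.22 to 9.76, 9.74 and 10.16 (1.36 ± 0.29 SE, adjusted p = 0.0181). The Ra call was lost without control replicate 1 or control replicate 2. SMAD7, the feedback inhibitor that TGF-beta induces, was higher in 4 and lower in 0, most in Ota high at 72 h, where it read 7.46, 6.86 and 7.21 against 5.76, 5.82 and 5.76 (1.39 ± 0.19 SE, adjusted p = 1.07e-05).

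TAGLN encodes transgelin, an actin-binding protein of contractile cells that TGF-beta and SRF are known to induce. It was tested in 20 treated groups and was higher in 5, of Aa and Ota, and lower in 0. In Aa high at 48 h it read 7.17, 6.51 and 7.11 against 3.05, 2.79 and 3.82, a rise of 3.71 ± 0.36 SE (adjusted p = 5.28e-07), with all 3 controls under log2 4. The low dose at 48 h gave 5.32, 4.49 and 5.23, a rise of 1.79 ± 0.36, and the high dose at 24 h gave 8.18, 7.26 and 7.46 against 6.53, 5.83 and 6.09, a rise of 1.49 ± 0.36. In Ota high it read 7.07, 6.64 and 4.74 at 24 h against 3.17, 2.90 and 2.67, a rise of 3.23 ± 0.46, and 5.42, 4.25 and 4.80 at 72 h against 2.95, 2.67 and 2.68, a rise of 2.06 ± 0.46. No arrays overlapped in the 5 groups, and all 5 calls held in every alternative run. Each Aa call was run in 12 alternatives and each Ota call in 10. In the Ota experiment the controls lay under log2 4, and the filter was met by the Ota high arrays themselves. The separation there is thus no independent support for the rise. Control levels differed between experiments, with group means from 2.36 to 7.58, and in the Aa experiment also between 24 and 48 h. Every Aa high array at 48 h read lower than those at 24 h, so the larger difference at 48 h came with lower controls.

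LOX, the lysyl oxidase that crosslinks collagen and elastin, was lower in 6 and higher in 1 treated groups. In Ota high at 72 h it read 5.06, 5.06 and 4.53 against 9.07, 9.08 and 9.65, a fall of 4.38 ± 0.31 SE on the log2 scale or 20.8-fold (adjusted p = 1.06e-08). The low dose gave 6.47, 7.86 and 7.11 against the same controls, all below them, a fall of 2.12 ± 0.31. In Aa high at 48 h it read 5.72, 4.43 and 4.64 against 7.19, 7.28 and 6.65, a fall of 2.11 ± 0.49. CdCl raised it at 12 h, to 9.11, 9.20 and 9.30 from 7.61, 7.91 and 7.40 (1.56 ± 0.13), and lowered it at 48 h, to 9.19, 9.23 and 9.26 from 9.62, 9.80 and 9.88 (-0.54 ± 0.13). The treated level was nearly the same at both times and the control level was not.

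Dose was compared at the later time, the high dose minus the low, in 4 compounds. With Ota at 72 h 7 members stood higher under the high dose and 13 lower, beside 57.8% of genes called (20.9% higher, 37.0% lower), led by COL4A3 (-4.76 ± 0.32), COL4A4 (-4.66 ± 0.32) and COL4A5 (-2.77 ± 0.24), and by TAGLN (2.14 ± 0.46), TGFBI (1.91 ± 0.22) and COL6A1 (1.87 ± 0.19). Quantile normalization moved the all-gene median there from -0.18 to -0.06. With Aa at 48 h 6 were higher and 7 lower beside 44.8% (20.3% higher, 24.5% lower), among them TAGLN (1.92 ± 0.36), CCN2 (1.56 ± 0.29), COL4A4 (-1.47 ± 0.46) and LOX (-1.33 ± 0.49). That count of 13 was 8 without Aa high replicate 3. With Kbr at 48 h 0 were higher and 2 lower beside 8.03% (1.71% higher, 6.32% lower), EFEMP1 (-1.36 ± 0.34) and LAMB1 (-0.70 ± 0.19). The Kbr count was 6 with the replicate block (17.8% of genes), 0 without high-dose replicate 2 or with only the arrays of the comparison, and 1 without high-dose replicate 3 or low-dose replicate 1, and 1 with the mean of all probe sets. With Nnm 0 were called beside 0.0% of genes, with 1 member at unadjusted p under 0.05.

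Whether a response changed with time was tested as the treated minus control difference at the later time minus that at the earlier. Ota high changed in 18 members, 7 upward and 11 downward, beside 53.4% of genes called (32.7% upward, 20.6% downward), led by LOX (-4.90 ± 0.43), CTHRC1 (3.64 ± 0.33), COL4A3 (-3.62 ± 0.45) and COL1A1 (2.54 ± 0.50). Its all-gene median was 0.20, and 0.04 after quantile normalization. Di changed in 19, 12 upward and 7 downward, beside 33.6% (17.5% upward, 16.2% downward), led by COL4A3 (-4.12 ± 0.48), CTHRC1 (-2.98 ± 0.37), COL4A4 (-2.94 ± 0.45) and NID1 (1.60 ± 0.25). CdCl changed in 16, 11 upward and 5 downward, beside 30.4% (21.1% upward, 9.34% downward), led by LOX (-2.10 ± 0.18) and COL4A4 (-2.05 ± 0.45). Aa high changed in 5, 4 upward and 1 downward, beside 18.8% (6.63% upward, 12.2% downward). TAGLN (2.23 ± 0.52), CCN2 (1.80 ± 0.41), THBS1 (1.69 ± 0.50) and LAMB3 (1.22 ± 0.31) changed upward and COL4A3 (-1.97 ± 0.55) downward. COL4A3 lay under log2 4 in the 24 h controls of the Aa experiment, so Aa high could show no fall of it at 24 h. With the replicate block Aa high changed in 9 upward and 4 downward (37.2%).

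Kbr high changed in 3 members with time, all downward, beside 1.89% of genes called (0.58% upward, 1.31% downward), namely EFEMP1 (-3.14 ± 0.48), COL4A3 (-2.22 ± 0.58) and LAMC1 (-0.70 ± 0.16). This count was 6 with the replicate block (7.72%), 5 with only the arrays of the comparison, and 1 without any 1 of the 3 high-dose arrays at 24 h, high-dose replicate 1 or 2 at 48 h, control replicate 2 or 3 at 24 h, or control replicate 2 at 48 h. COL4A3 lay under log2 4 in the 24 h controls of this experiment, so Kbr high could show no fall of it at 24 h. Nnm high had 0 members called beside 0.0% of genes, with 5 at unadjusted p under 0.05, and 2 without replicate 2 of either time. CsA had 0 beside 0.0% and Ra 0 beside 0.0459%, with 0 and 4 at unadjusted p under 0.05.

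Compounds with the same controls were compared directly in 3 contrasts, in which the controls cancel. Nnm high against Kbr high at 48 h had 23 members higher and 2 lower, beside 56.7% of genes called (32.5% higher, 24.2% lower), with a member median of 1.41 against 0.10. EFEMP1 (4.95 ± 0.34), CTHRC1 (3.72 ± 0.39), LTBP2 (3.24 ± 0.42) and LAMB3 (2.86 ± 0.61) were higher with Nnm, and THBS1 (-3.24 ± 0.80) and CCN1 (-1.11 ± 0.40) lower. CdCl against Di had 9 higher and 3 lower at 12 h beside 41.1% (15.2% higher, 25.9% lower), and 15 higher and 5 lower at 48 h beside 42.6% (23.6% higher, 19.0% lower). COL12A1 (3.77 ± 0.29 and 5.38 ± 0.29 at 12 and 48 h) led each, followed at 48 h by CTHRC1 (3.29 ± 0.26) and COL4A3 (2.47 ± 0.34), while CCN2 (-0.76 ± 0.10) and LOX (-0.75 ± 0.13) were lower with CdCl than with Di. The labels do not give the compounds' full names or matched concentrations, so these contrasts compare the cultures as treated.

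Untreated cultures also changed between the early and late times, which is why each treated group was set against the control of its own time. In the CdCl and Di controls 3 members were higher and 17 lower at 48 than at 12 h, beside 48.9% of genes called (19.7% higher, 29.3% lower), with THBS1 (-2.52 ± 0.32), LTBP2 (-2.03 ± 0.33), CTHRC1 (-2.02 ± 0.26) and LOX (2.12 ± 0.13). In the Ota controls 3 were higher and 12 lower at 72 than at 24 h beside 28.8% (13.6% higher, 15.3% lower), with CTHRC1 (-2.40 ± 0.23) and LOX (2.61 ± 0.31). In the Fk and Ra controls 1 was higher and 3 lower beside 16.0% (7.8% higher, 8.18% lower), a count of 4 that was 2 without the 48 h replicate 1 or 2. The Aa controls gave 1 higher and 2 lower beside 1.25% (0.468% higher, 0.783% lower), with TAGLN (-2.93 ± 0.36), CTHRC1 (-1.10 ± 0.25) and COL4A3 (1.98 ± 0.39), and the Nnm and Kbr controls 1 and 1 beside 0.598% (0.308% higher, 0.29% lower), with TAGLN (-2.54 ± 0.56) and COL4A3 (2.21 ± 0.41). The CsA controls gave 1 lower, COL6A1, beside 13.5% (6.89% higher, 6.63% lower).

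The last 3 of these control counts also moved with single arrays. The Aa count of 3 was 14 with the replicate block (14% of genes), 5 without the 48 h replicate 3 and 1 without any other single array. The Nnm and Kbr count of 2 was 5 with the block (7.72%), 0 without the 24 h replicate 1 or 3 or the 48 h replicate 2, and 1 without the 48 h replicate 1. The CsA count of 1 was 7 with the block (29.1%), 0 without any 12 h array or the 48 h replicate 2, and 3 without the 48 h replicate 3.

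Related genes outside the 35 were followed as 7 lists at the later time and high dose, where the share of all genes called was 64.3% in Aa, 51.1% in Kbr, 27.7% in Nnm, 63.2% in Ota, 46.4% in CdCl and 47.4% in Di. Of 10 tested other collagen, laminin and basement membrane genes, Kbr lowered 9 and raised 0 (median -1.29), led by the laminin gene LAMB2 (-2.81 ± 0.38), the agrin gene AGRN (-2.44 ± 0.31) and the nidogen gene NID2 (-1.99 ± 0.37). Ota lowered 7 and raised 1, led by NID2 (-3.23 ± 0.23), LAMA1 (-2.56 ± 0.21) and LAMB2 (-2.50 ± 0.24). Aa lowered 4 and raised 3, CdCl lowered 4 and raised 4, Di lowered 4 and raised 2, and Nnm lowered 1. Of 17 tested genes of collagen folding and crosslinking, Kbr lowered 7 and raised 0, with the lysyl oxidase family genes LOXL1 (-2.52 ± 0.34) and LOXL2 (-1.87 ± 0.25). Ota lowered 8 and raised 4 of them, with the lysyl hydroxylase gene PLOD2 at -2.47 ± 0.15, and CdCl raised 6 and lowered 3, with the prolyl hydroxylase gene P4HA2 at 1.24 ± 0.07. Aa raised 7 and lowered 5, Di raised 4 and lowered 6, and Nnm raised 2 and lowered 0.

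Of 15 tested receptors and SMAD pathway genes, Aa raised 4 and lowered 8, Nnm raised 6 and lowered 0, Kbr raised 2 and lowered 3, Ota raised 2 and lowered 4, CdCl raised 1 and lowered 6, and Di raised 4 and lowered 6. The type II receptor gene TGFBR2 was among the 3 largest in Aa (-1.54 ± 0.09), Kbr (-1.56 ± 0.19), CdCl (-1.08 ± 0.12) and Di (-1.07 ± 0.12). Among TGF-beta target genes Aa raised 8 and lowered 1 of 10, led by the cell cycle inhibitor CDKN2B (5.75 ± 0.21), the transcription factor SNAI2 (3.42 ± 0.22) and the inhibitor of differentiation ID2 (3.18 ± 0.21). Nnm raised 5 and lowered 0 of 9, and Ota raised 4 and lowered 2 of 9. CdCl raised 5 and lowered 5 of 10, and Di raised 4 and lowered 5 of 10, each with SNAI2 as the largest (4.78 ± 0.25 and 5.09 ± 0.25). Kbr raised 1 and lowered 3 of 9. This list was not split by the direction in which TGF-beta moves each gene, so a raised gene is not read as TGF-beta induction.

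Among YAP and SRF targets ANKRD1 differed by 4.19 ± 0.20 in CdCl and MYL9 by -1.94 ± 0.36 in Nnm. In this list Ota raised 4 and lowered 3 of 10, CdCl raised 2 and lowered 4 of 11, Di raised 3 and lowered 3 of 11, Aa raised 2 and lowered 1 of 10, and Kbr and Nnm each raised 0 and lowered 2 of 10. Of matrix proteases and inhibitors Ota raised 10 and lowered 0 of 12, led by the collagenase MMP1 (5.58 ± 0.69), urokinase PLAU (3.33 ± 0.26) and matrilysin MMP7 (2.16 ± 0.18), and CdCl raised 7 and lowered 1 of 12, with MMP1 at 3.87 ± 0.19. Kbr raised 0 and lowered 4 of 12, Di raised 2 and lowered 4 of 12, Nnm raised 1 and lowered 1 of 12, and Aa raised 3 and lowered 1 of 11. Of integrins and other matrix receptors Ota raised 7 and lowered 3 of 14, with the hyaluronan receptor CD44 at 3.26 ± 0.20, and CdCl and Di each raised 5 and lowered 2 of 13. Aa raised 3 and lowered 6 of 13, Nnm raised 2 and lowered 1, and Kbr raised 0 and lowered 4. No test compared a list with other genes. In CsA and Fk at 48 h 0 genes of any of the 7 lists were called by limma. Ra at 48 h, where 9.33% of all genes were called, raised 1 of the 10 other collagen, laminin and basement membrane genes. It also raised 2 of the 17 collagen folding and crosslinking genes, and raised 1 and lowered 1 of the 15 receptor and SMAD pathway genes. The TGF-beta target, YAP and SRF, and matrix receptor lists had 0 called in Ra at 48 h.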

How the data were processed

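Per the submitters' processing notes the authors made the deposited log2 values with GCRMA, normalizing the whole series together; the version is not given in the sources used here. The arrays give no counts, and 3 per group limit the precision. Each gene took the probe set with the highest mean over the arrays, and probe sets naming several genes or none were left out. Within each of 6 experiments sharing controls, limma 3.58.1 in R 4.3.3 fitted 1 mean per group with moderated variance to all genes above log2 4 on at least 3 of that experiment's arrays (10806 to 11138 genes), and p-values were adjusted by Benjamini-Hochberg over them, with calls under 0.05. The fit was also run on simulated data with known shifts in genes of mean level above log2 6. The simulated arrays varied independently and no gene near the low end was shifted. That run therefore does not cover shared spread of same-numbered arrays or differences at the low end of the scale. Each result was recomputed without the filter, with it raised to log2 6, with each gene's probe sets averaged, after quantile normalization, with the replicate number as a block, from just those arrays being compared, and without every array in turn. Same-numbered arrays varied together in the CsA, Aa, and Nnm and Kbr experiments (lowest pair correlations 0.534, 0.28 and 0.139), so the numbers were taken to pair samples there. The main fit did not use this pairing. Every SE, p-value and call in the text comes from the fit without the block, except where the block is named. Any member could be named. Array values are given for the members with the largest called changes of each role, and of the other lists at most the 3 called genes with the largest change in a comparison are named. Members and lists were chosen with earlier results of these data known. Tables and figures used Python 3.11.15, pandas 2.3.3, numpy 2.4.6 and matplotlib 3.10.9.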

Additional observations from a re-analysis of the deposited data

Results flagged for a closer look

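Differences between times in the same compound were picked out by the test of the difference itself, the later treated minus control difference minus the earlier one, at limma adjusted p under 0.05. It was met by 5 members in Aa high, 3 in Kbr high, 18 in Ota high, 16 in CdCl and 19 in Di, and by 0 in Nnm high, CsA and Ra (5, 0 and 4 at unadjusted p under 0.05). Kbr high gave 1 without any of 8 single arrays, which are named with that comparison.

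Among genes called in opposite directions at the 2 times, CTHRC1 in Ota high moved by 3.64 and COL18A1 in Ota high by -1.93 between 24 and 72 h. COL18A1 moved by 1.06 in CdCl between 12 and 48 h, and TGFB1 by 0.90 there. LOX moved by -2.10 in CdCl, where its treated level was alike at both times. NID1 moved by 1.60 in Di, and FN1 by 0.46 in Di, where another FN1 probe set rose by 0.74 at 12 h and the lower call at 12 h was lost in 6 of 12 alternatives.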

How the results depend on the processing

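Counts of members called with each array left out in turn ranged as follows where any moved by over 1.5 times: Aa low 24 h 3 to 7, Aa low 48 h 6 to 10, Kbr high 24 h 5 to 11, Kbr low 24 h 0 to 2, Nnm high 24 h 4 to 10, Nnm high 48 h 3 to 11, Nnm low 24 h 1 to 8, Nnm low 48 h 1 to 9, Ota low 24 h 0 to 2, Ota low 72 h 3 to 7, and Ra 48 h 0 to 6. The dose comparisons ranged from 8 to 13 in Aa and 0 to 2 in Kbr, the changes of response with time from 1 to 2 in Kbr high and 0 to 2 in Nnm high, and the controls over time from 0 to 3 in CsA, 1 to 5 in Aa, 0 to 2 in Nnm and Kbr, and 2 to 6 in Fk and Ra. The other 28 counts stayed within 1.5 times. These arrays are named with each result.

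With the replicate block the counts were Aa high 24 h 20, Aa low 24 h 16, Aa low 48 h 17, Kbr high 24 h 21, Kbr low 24 h 9, Nnm high 48 h 13, Nnm low 24 h 10, Nnm low 48 h 12, CsA 48 h 1, Kbr high against low 6, the Aa high response 13, the Kbr high response 6, and the controls over time 7 in CsA, 14 in Aa and 5 in Nnm and Kbr. In the Ota and the Fk and Ra experiments the numbers did not pair the arrays (lowest pair correlations -0.0542 and -0.176), nor in that of CdCl and Di (-0.274), and the block gave 4 in Ota low 24 h, 10 in Ota low 72 h and 7 in the Fk and Ra controls. Other counts moved by no more than 1.5 times under the block.

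Without the filter on low values the counts were Aa high 24 h 7, Kbr low 24 h 1, Nnm high 24 h 5, Nnm high 48 h 5, Nnm low 24 h 3, Nnm low 48 h 2, the Aa high response 3, and the controls over time 0 in CsA, 1 in Aa and 1 in Nnm and Kbr. The last was 1 with the filter at log2 6 and 0 with averaged probe sets, which gave 2 in Ota low 24 h and 1 in Kbr high against low. Quantile normalization gave 1 in Ra 12 h and 9 in Ra 48 h. Fitting only the arrays compared gave Nnm high 24 h 3, Nnm high 48 h 0, Nnm low 24 h 2, Nnm low 48 h 1, Ota low 72 h 10, Ra 12 h 1, Ra 48 h 0, Di 12 h 4, Kbr high against low 0, the Kbr high response 5, and 0 in the CsA, Aa, and Nnm and Kbr controls over time. It has fewer arrays to estimate the spread, and the cause of the other moves was not tested.

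Of single genes called, 1 reversed, FN1 in Kbr high at 48 h, at 0.02 with averaged probe sets. Of the gene results run, the block kept 241 of 244 calls, quantile normalization 236 of 244, and fitting only the arrays compared 200 of 242. Quantile normalization moved the share of all calls that were higher from 20.1% to 50.6% in Ra 48 h, from 30.5% to 42.4% in Di 12 h and from 21.3% to 31.5% in Kbr high against low. Of the members' calls, that share moved from 0.0% to 12.5% in Aa low 24 h, from 2 of 5 to 3 of 5 calls in Nnm low 24 h and from 100.0% to 77.8% in Ra 48 h.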

Other observations

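The control arrays of the Aa experiment and those of the Nnm and Kbr experiment that carry the same number correlated at r of 0.9981 to 0.9987 over genes at 24 h (3 pairs) and 0.9983 to 0.9987 at 48 h (3 pairs). Pairs with different numbers gave 0.9962 to 0.9971 at 24 h (6 pairs) and 0.9953 to 0.9971 at 48 h (6 pairs). Genes are not independent replicates, and these values are given as a description.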
